A study of Mus musculus with 10 samples.

Results

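The Fos and Jun subunits of the transcription factor AP-1 were examined in RNA from mouse brains. The 9 genes Fos, Fosb, Fosl1, Fosl2, Jun, Junb, Jund, Atf3 and Batf3 were taken by symbol from a table of 25050 genes, and each symbol matched 1 row. Brains came from 5 wildtype mice (Abcc5+/+) and 5 mice carrying the knockout label for Abcc5, a transporter gene (Abcc5-/-), all of the FVB/NJ strain. The mice had been killed with carbon dioxide, and the brains had gone straight onto dry ice. Libraries were made from polyadenylated RNA, and age and sex were not given in the labels. The labels number the brains within each group and do not say which animals were littermates or processed together.

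AP-1 is a pair of proteins held together by leucine zippers. Jun proteins can pair with each other or with a Fos protein, whereas Fos proteins need a Jun partner to bind DNA. In neurons, Fos, Fosb and Junb are immediate early genes, transcribed within minutes of a stimulus through sites for the factors CREB and SRF and for the ternary complex factors. Fosl2 is usually induced later, Jund is held at a high steady level in most cells, and Atf3 and Batf3 are related leucine zipper proteins that can pair with Jun.

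The sequences around the start sites of 5 subunits are shown. Of these, Fos, Fosb and Fosl2 were called lower, and Junb and Jun were not. The windows of Jund, Atf3 and Batf3 were searched as well and are not shown. RefSeq (GRCm38.p6) gave a window for 8 of the 9 genes, running from 250 bases before the start to 50 after it. The 6 motifs were searched on both strands. The core of a site for CREB is TGACG, and it lies within the full CREB site, which is TGACGTCA. The AP-1 proteins themselves bind the classic site written as TGACTCA. A variant of it found before Jun is TGACATCA, which was added after the letters of that window had been seen. The last 2 motifs were the TATA box core TATAAA and the CArG box of SRF. Capitals mark every match, and each sequence runs 5′ to 3′ on the strand of its gene.
Fos chr12:85473640-85473939 (plus strand): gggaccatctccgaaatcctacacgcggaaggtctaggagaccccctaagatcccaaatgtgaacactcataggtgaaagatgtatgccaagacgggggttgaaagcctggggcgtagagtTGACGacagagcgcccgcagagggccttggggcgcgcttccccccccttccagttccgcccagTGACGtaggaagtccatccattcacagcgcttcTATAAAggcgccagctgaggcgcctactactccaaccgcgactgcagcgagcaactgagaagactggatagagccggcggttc
Fosb chr7:19309996-19310295 (minus strand): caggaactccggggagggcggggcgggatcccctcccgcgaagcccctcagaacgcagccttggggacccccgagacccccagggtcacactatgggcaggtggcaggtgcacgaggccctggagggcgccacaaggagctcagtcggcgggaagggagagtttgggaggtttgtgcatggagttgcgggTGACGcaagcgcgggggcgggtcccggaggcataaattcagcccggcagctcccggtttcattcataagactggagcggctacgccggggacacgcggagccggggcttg
Junb chr8:84978699-84978998 (minus strand): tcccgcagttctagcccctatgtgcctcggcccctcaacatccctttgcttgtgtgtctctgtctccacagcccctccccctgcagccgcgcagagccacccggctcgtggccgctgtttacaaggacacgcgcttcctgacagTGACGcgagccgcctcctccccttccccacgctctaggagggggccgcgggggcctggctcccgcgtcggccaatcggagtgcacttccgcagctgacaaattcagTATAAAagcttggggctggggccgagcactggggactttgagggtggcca
Jun chr4:95052173-95052472 (minus strand): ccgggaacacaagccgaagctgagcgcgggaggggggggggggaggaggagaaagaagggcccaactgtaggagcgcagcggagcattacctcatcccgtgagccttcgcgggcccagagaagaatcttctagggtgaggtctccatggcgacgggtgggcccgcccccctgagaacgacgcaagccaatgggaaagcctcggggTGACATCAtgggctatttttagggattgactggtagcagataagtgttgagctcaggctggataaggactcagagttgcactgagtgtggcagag
Fosl2 chr5:32136222-32136521 (plus strand): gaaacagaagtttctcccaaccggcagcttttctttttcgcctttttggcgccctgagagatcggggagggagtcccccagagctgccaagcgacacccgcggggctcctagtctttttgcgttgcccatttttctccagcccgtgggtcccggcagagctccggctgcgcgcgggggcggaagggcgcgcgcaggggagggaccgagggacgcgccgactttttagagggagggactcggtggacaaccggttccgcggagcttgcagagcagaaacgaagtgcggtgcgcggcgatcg

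TGACG was present in 4 of the 8 windows, those of Fos, Fosb, Junb and Atf3, and in 20.8% of 32817 promoter windows of this length. Its first base lay 66 and 129 bases before the start of Fos, 60 before that of Fosb and 106 before that of Junb. In Atf3, which was not called, the match was on the opposite strand and began 7 bases before the start. TATAAA occurred in the windows of Fos and Junb and in 13.6% of all windows. In Fos it began 33 bases before the start, and in Junb at the start itself, at base 251 of the window. TGACATCA occurred only in the window of Jun among the 8, 45 bases before its start, and in 3.62% of all windows. The window of Fosl2 held none of the 6 motifs. TGACGTCA (1.79% of all windows), TGACTCA (5.21%) and the CArG box (1.63%) were in none of the 8. Sequence more than 250 bases before a start was not searched, so a gene can still have such a site further upstream. A match is a string of letters, and its use in these brains was not measured.

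Library depth varied between 7731294 and 23588335 counts. The deeper libraries were wildtype replicate 1 with knockout replicates 2 and 4, at 19795743 counts or more, while the 7 shallower ones reached at most 11479995. Levels are CPM, read counts scaled to the size of each library. Abcc5 itself averaged 311.1 ± 12.6 CPM over wildtype and 218.8 ± 5.95 CPM over knockout brains (SD, n = 5 per group), without overlap, so reads of the gene were still present in the brains labelled as knockouts. Of the 10 libraries, knockout replicate 3 was the most extreme on the first principal component. It nearly lacked the 6 cerebellar markers, with a summed level of 67.5 CPM. The other knockout libraries had 788.8 to 857.4 CPM, above the 727.2 to 776.9 CPM of the wildtype libraries, without overlap.

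In the knockout brains the 3 well detected Fos genes were lower. Fos fell by 52.4%, Fosb fell by 54.1% and Fosl2 fell by 49.6%. For Junb the estimated change was -29.7%, which narrowly missed the threshold, and Jun and Jund did not pass either. Of the 9 subunits 7 had enough counts to be tested, 3 fell and none rose by edgeR at an adjusted p of 0.05. Over all 14526 tested genes 0.964% were called lower and 0.213% higher. The median log2 fold change of the 7 tested subunits was -0.76, against 0.0042 over all tested genes. That median is the value of Atf3, which had only 3 to 34 counts per library and did not pass. In bulk tissue, fewer cells expressing a gene and less RNA per cell cannot be told apart.

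**Figure D1:**
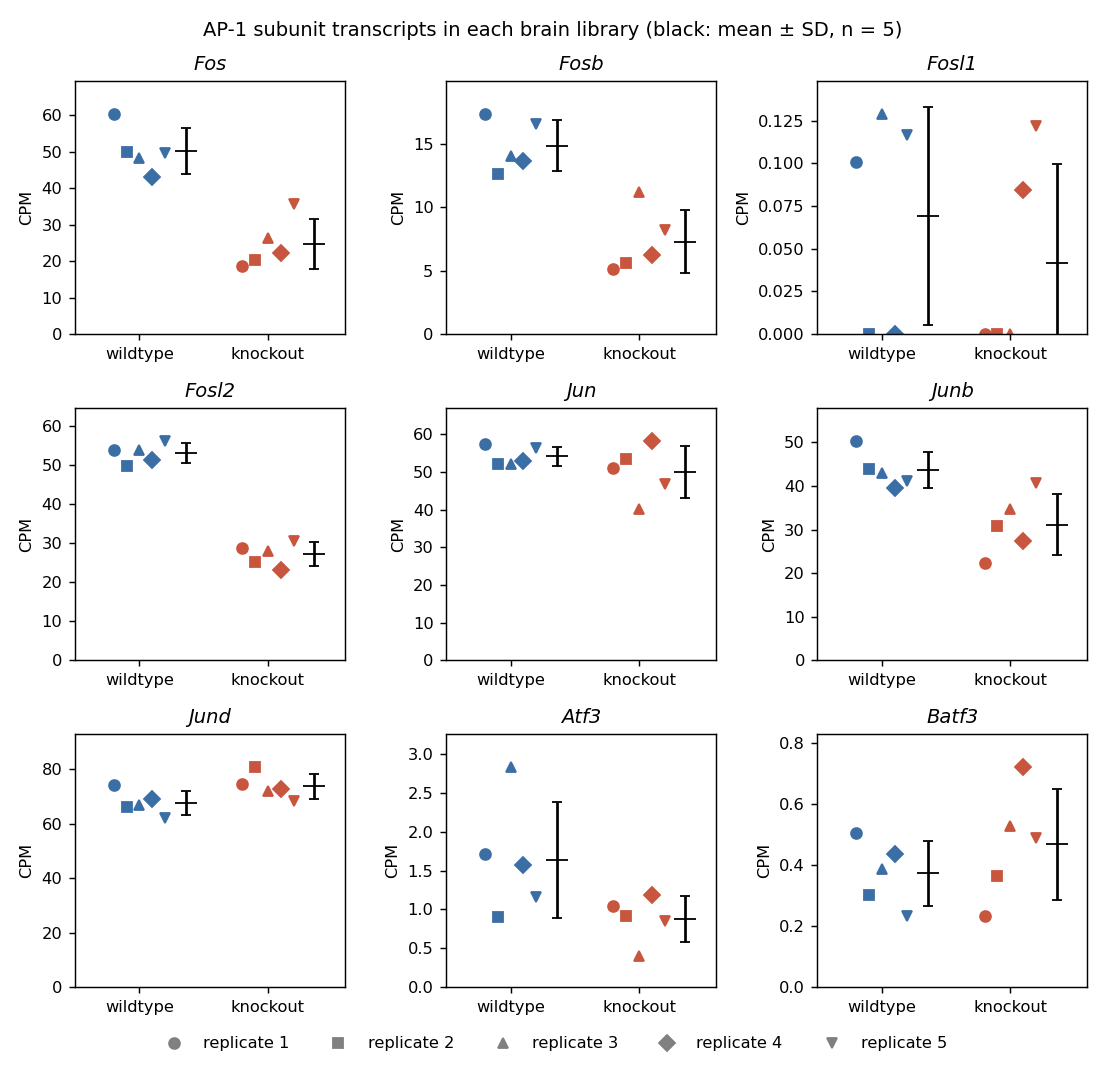
Level of each of the 9 subunits (CPM, vertical axis from 0) in each wildtype (blue) and knockout (red) library; symbol shapes give the replicate number and black bars the mean ± SD (n = 5). For Fos, Fosb and Fosl2 the 5 knockout libraries all lie below the 5 wildtype libraries, and the other 6 genes overlap between groups.

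Fos (ENSMUSG00000021250, chromosome 12, 86814840 to 86818223 in the deposited coordinates, whose build is not named) encodes c-Fos, the subunit most used as a marker of recently active neurons. Its levels in wildtype replicates 1 to 5 were 60.4, 50.004, 48.4, 43.0 and 49.6 CPM, and in knockout replicates 1 to 5 they were 18.5, 20.4, 26.3, 22.3 and 35.6 CPM. The highest knockout library, replicate 5, was still below the lowest wildtype library, replicate 4. The group means were 50.3 ± 6.30 and 24.6 ± 6.80 CPM (SD, n = 5 each), a log2 fold change of -1.07 (SE 0.137, edgeR adjusted p 0.000862). The 95% interval of the log2 fold change ran from -1.39 to -0.75. The knockout libraries were spread more widely around their mean than the wildtype libraries, with a coefficient of variation of 27.6% against 12.5%, where counting error alone gives 6.14% and 4.45%. That difference in spread was not tested.

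Fosb (ENSMUSG00000003545, chromosome 7, 19888070 to 19895394) encodes FosB and, by splicing, the stable short form ΔFosB that builds up with repeated stimulation. The table has 1 count per gene, so the forms cannot be parted. Wildtype replicates 1 to 5 had 17.4, 12.6, 14.1, 13.7 and 16.6 CPM, and knockout replicates 1 to 5 had 5.10, 5.60, 11.2, 6.27 and 8.18 CPM. All knockout libraries were below all wildtype libraries, and knockout replicate 3, the one short of cerebellar transcripts, came nearest. Wildtype brains averaged 14.9 ± 2.01 CPM and knockout brains 7.27 ± 2.49 CPM (SD, n = 5 per group). That is a log2 fold change of -1.12 (SE 0.164, edgeR adjusted p 0.00235). Without knockout replicate 3 the log2 fold change was -1.29 (edgeR adjusted p 5.81e-06).

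Fosl2 (ENSMUSG00000029135, chromosome 5, 32438845 to 32460204) encodes Fra-2, a Fos protein without the strong activation domain of c-Fos. Levels in wildtype replicates 1 to 5 were 53.8, 49.8, 53.8, 51.2 and 56.2 CPM, and in knockout replicates 1 to 5 they were 28.8, 25.1, 28.1, 23.0 and 30.6 CPM. The groups were far apart and each was tight, with coefficients of variation of 4.73% and 11.3%. The log2 fold change was -0.99 (SE 0.073, edgeR adjusted p 5.05e-06), and by p Fosl2 ranked 2 among all 14526 tested genes. Over all tested genes, 2.64% had groups that did not overlap with knockout lower, which held for 3 of the subunits. For Fos, Fosb and Fosl2 the exact two-sided permutation p over all assignments of the libraries to groups was 0.00794, the smallest that this design can give.

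Fosl1 (ENSMUSG00000024912, chromosome 19, 5447703 to 5455945), which encodes Fra-1, was at the limit of detection. Its counts in wildtype replicates 1 to 5 were 2, 0, 1, 0 and 1, and in knockout replicates 1 to 5 they were 0, 0, 0, 2 and 1. A count of 0 allows up to 3 counts, which is 0.127 to 0.396 CPM depending on the library, so no difference was detectable at this depth. In the GENCODE M21 annotation, 57.2% of its exon bases overlap Ccdc85b on the opposite strand, and since the strand of counting is not given in the sources used here, the origin of these few reads cannot be told apart.

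Jun (ENSMUSG00000052684, chromosome 4, 94715725 to 94718913) encodes c-Jun, the main partner of Fos proteins. Wildtype replicates 1 to 5 had 57.4, 52.0, 52.1, 53.0 and 56.2 CPM, and knockout replicates 1 to 5 had 51.1, 53.3, 40.1, 58.3 and 46.8 CPM. The groups overlapped, with knockout replicate 4 the highest and knockout replicate 3 the lowest of all 10 libraries. The log2 fold change was -0.10 (95% interval -0.28 to 0.081, edgeR adjusted p 0.585). Without knockout replicate 3 it was -0.035.

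Junb (ENSMUSG00000052837, chromosome 8, 87500811 to 87502617) encodes JunB, which pairs with Fos proteins and restrains some targets of c-Jun. Levels in wildtype replicates 1 to 5 were 50.4, 43.9, 42.8, 39.5 and 41.2 CPM, and in knockout replicates 1 to 5 they were 22.3, 30.7, 34.7, 27.3 and 40.7 CPM. Of the 5 knockout libraries 4 were below every wildtype library, and the remaining one, replicate 5, was above the lowest wildtype value. The means were 43.6 ± 4.16 and 31.1 ± 6.99 CPM (n = 5 each), a log2 fold change of -0.51 (95% interval -0.78 to -0.24, edgeR adjusted p 0.0506). The exact two-sided permutation p was 0.0159. In the authors' deposited table the log2 fold change of Junb was -0.55 with an adjusted p of 0.0349. The call also passed with DESeq2 (adjusted p 0.00689) and limma-voom (adjusted p 0.0334), and by edgeR without knockout replicate 3 (adjusted p 0.0125) or without knockout replicate 5 (adjusted p 0.00923). It missed in all other edgeR fits with 1 library left out, at adjusted p-values of 0.0861 to 0.131.

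Jund (ENSMUSG00000071076, chromosome 8, 73221638 to 73224515) encodes JunD, the Jun protein that varies least with stimulation. In wildtype replicates 1 to 5 the levels were 74.3, 66.0, 66.7, 69.3 and 62.2 CPM, and in knockout replicates 1 to 5 they were 74.6, 80.9, 72.2, 72.9 and 68.5 CPM. The groups overlapped, and 2 knockout libraries were above every wildtype library. The log2 fold change was 0.12 (95% interval -0.0063 to 0.25, edgeR adjusted p 0.323). The unadjusted edgeR p was 0.0443, and 14.8% of all tested genes had one under 0.05. The interval includes 0 because it uses fewer degrees of freedom than the test. GENCODE M21 places an antisense transcript, Gm11175, over 52.6% of the exon bases of Jund. This transcript has no row of its own in the table, so its reads and those of Jund cannot be told apart. Prdx2 on the opposite strand covers 7.52% of the exon bases of Junb, and Junos 7.28% of those of Jun.

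Atf3 (ENSMUSG00000026628, chromosome 1, 192994175 to 193007219) encodes a stress-induced repressor that marks injured neurons. It was scarce, with 3 to 34 counts per library. The 5 wildtype levels, in the order of the replicate numbers, were 1.71, 0.902, 2.84, 1.57 and 1.17 CPM, and the 5 knockout levels were 1.04, 0.911, 0.396, 1.19 and 0.855 CPM. Wildtype replicate 3 was the highest and knockout replicate 3 the lowest, with overlap between the groups. The log2 fold change was -0.76 (95% interval -1.42 to -0.10) and did not pass (edgeR adjusted p 0.229, exact permutation p 0.0556). At this depth counting error alone gives a coefficient of variation of 26.1% in wildtype and 36.7% in knockout.

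Batf3 (ENSMUSG00000026630, chromosome 1, 192922293 to 192932822) encodes a small leucine zipper protein best known from dendritic cells. It had 23 counts over the wildtype and 35 over the knockout libraries, too few for the model. By replicate number, the wildtype levels were 0.503, 0.301, 0.387, 0.436 and 0.233 CPM, and the knockout levels were 0.232, 0.364, 0.528, 0.720 and 0.488 CPM. The groups overlapped, and the exact two-sided permutation p was 0.421.

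**Figure D2:**
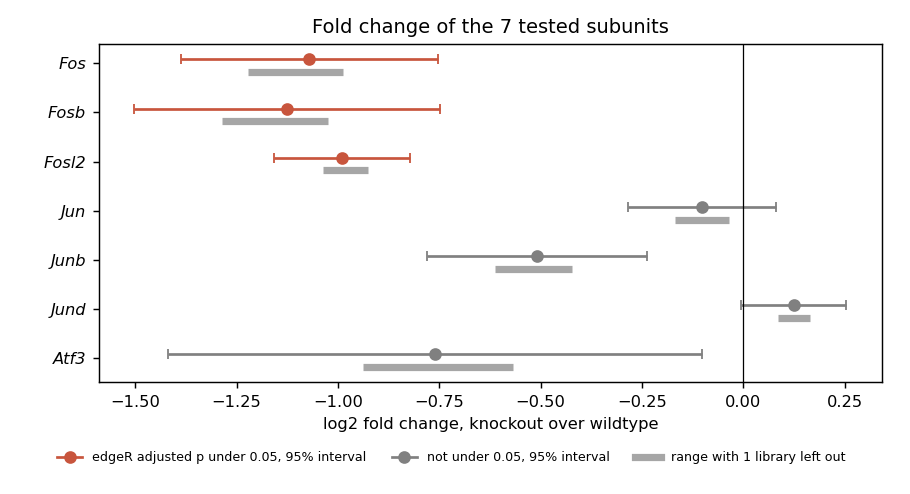
Log2 fold change of knockout over wildtype (horizontal axis) for the 7 tested subunits, with 95% intervals (red where the edgeR adjusted p was under 0.05, grey where it was not) and, as grey bars, the range when 1 library at a time was left out. The estimates for Fos, Fosb and Fosl2 lie between -1.12 and -0.99, while the intervals of Jun and Jund include 0.

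The calls of the 3 Fos genes did not rest on a single library. With 1 library left out, the log2 fold change ran from -1.22 to -0.99 for Fos, from -1.29 to -1.02 for Fosb and from -1.04 to -0.92 for Fosl2, and all 3 passed in all 10 such fits (largest edgeR adjusted p 0.0127, for Fosb). Without knockout replicate 3, the library short of cerebellar transcripts, Fos was at -1.11 and Fosl2 at -1.01 on the log2 scale. The differences were larger among the deeper libraries (1 wildtype, 2 knockout). There the difference of mean log2 CPM was -1.49 for Fos, -1.53 for Fosb, -1.16 for Fosl2 and -0.80 for Junb, and within the 7 shallower libraries it was -0.88, -0.85, -0.85 and -0.40. In the 7 shallower libraries alone, Fosl2 passed (edgeR adjusted p 0.000189) and Fos and Fosb did not (edgeR adjusted p 0.0543 and 0.144). For Jun the 2 differences were -0.042 and -0.22, and for Jund they were 0.048 and 0.12. With depth class as a term in the model, Fos, Fosb and Fosl2 passed, and Junb did too (edgeR adjusted p 0.0489).

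The subunits were next compared within each library, where depth and scaling cancel. The ratios were chosen with results known and are described without a test. The log2 ratio of Fos to Jun in CPM was 0.072, -0.057, -0.11, -0.30 and -0.18 in wildtype replicates 1 to 5. It was -1.46, -1.39, -0.61, -1.39 and -0.39 in knockout replicates 1 to 5. All knockout ratios were below all wildtype ratios, and knockout replicates 3 and 5 were nearer to wildtype than the other 3. The group means differed by -0.93, and with 1 library left out by -1.10 to -0.83. The ratio of Fosl2 to Jun differed by -0.84 and did not overlap either, from -0.095 to 0.046 in wildtype and from -1.34 to -0.51 in knockout. Fos and Fosl2 already separated the groups by level, so these separations are not independent of that result. The ratio of Junb to Jun differed by -0.38 and overlapped. Ratios of 1 Fos gene to another moved little, by -0.022 for Fosb over Fos and 0.090 for Fosl2 over Fos, with overlap in both. Reads of the 4 Fos genes made up 39.7% to 43.2% of all reads of the 9 subunits in wildtype and 23.5% to 32.2% in knockout libraries. Summed over the 4 Fos genes, wildtype brains had 118.2 ± 9.22 CPM and knockout brains 59.1 ± 10.6 CPM, and that of the 3 Jun genes was 165.4 ± 9.37 and 154.9 ± 7.51 CPM (n = 5 each).

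**Figure D3:**
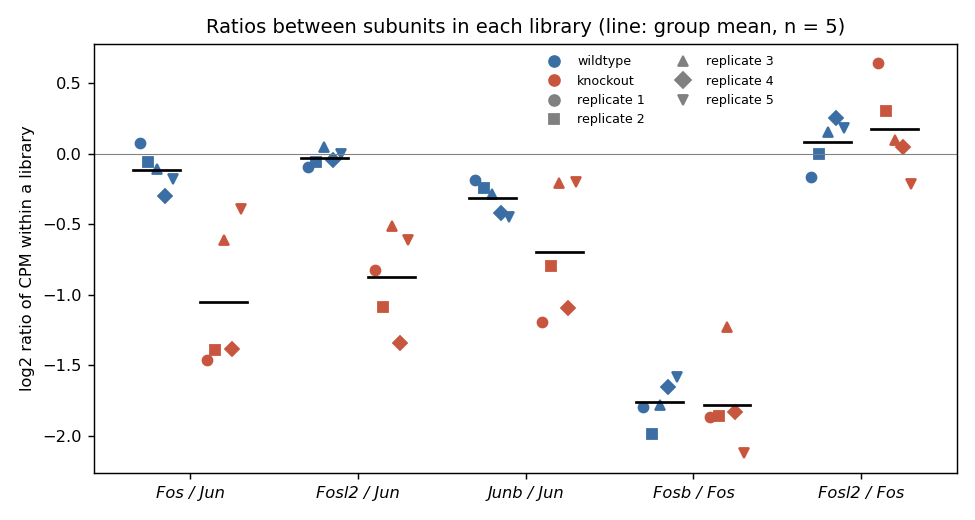
Log2 ratio of 1 subunit to another in each library (vertical axis), wildtype in blue and knockout in red, with a line at each group mean (n = 5) and symbol shapes for the replicate. Fos over Jun and Fosl2 over Jun separate the groups, whereas Fosb over Fos and Fosl2 over Fos overlap.

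The knockout libraries did not keep 1 order across the subunits. Knockout replicate 1 was the lowest for Fos, Fosb and Junb, and knockout replicate 4 was the lowest for Fosl2. Knockout replicate 5 was the highest for Fos, Fosl2 and Junb, and knockout replicate 3 was the highest for Fosb. The root mean square difference between the centred log2 CPM profiles over the 10 libraries was 0.23 for Fos and Fosb, 0.23 for Fos and Fosl2 and 0.29 for Fos and Junb. It was 0.18 for Jun and Jund and 0.57 for Fos and Jun. By this measure Fos, Fosb, Fosl2 and Junb were nearer to each other than any of the first 3 was to Jun or Jund. Junb itself was about as far from Fosb (0.357) as from Jun (0.361). The profiles were centred over both groups together, so the measure includes the difference between the groups.

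To compare the subunits with each other, CPM were divided by the exon length of each gene in GENCODE M21. These lengths can differ from the gene models that were counted. The deposited Junb, 87500811 to 87502617, spans less than the 2301 bases used. The deposited Jund, 73221638 to 73224515, spans more than the 1668 bases used. The order of the subunits can therefore depend on the lengths, and others were not tried. By these lengths Jund was highest in wildtype brains, at 40.6 ± 2.67 CPM per kilobase (n = 5). Fos followed at 21.4 ± 2.68, Junb at 18.9 ± 1.81 and Jun at 16.98 ± 0.788. The ranges of Fos and Junb overlapped, as did those of Junb and Jun, whereas Jund lay above Fos in every wildtype library. Fosl2 came next at 5.47 ± 0.259, then Fosb at 2.38 ± 0.322, Atf3 at 0.760 ± 0.345 and Batf3 at 0.233 ± 0.067 CPM per kilobase. In knockout brains Jund was at 44.2 ± 2.72, Jun at 15.7 ± 2.16, Junb at 13.5 ± 3.04 and Fos at 10.5 ± 2.89 CPM per kilobase. By these means Fos was above Jun in wildtype and below it in knockout, while Fosl2 at 2.80 ± 0.316 and Fosb at 1.16 ± 0.400 kept their places.

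**Figure D4:**
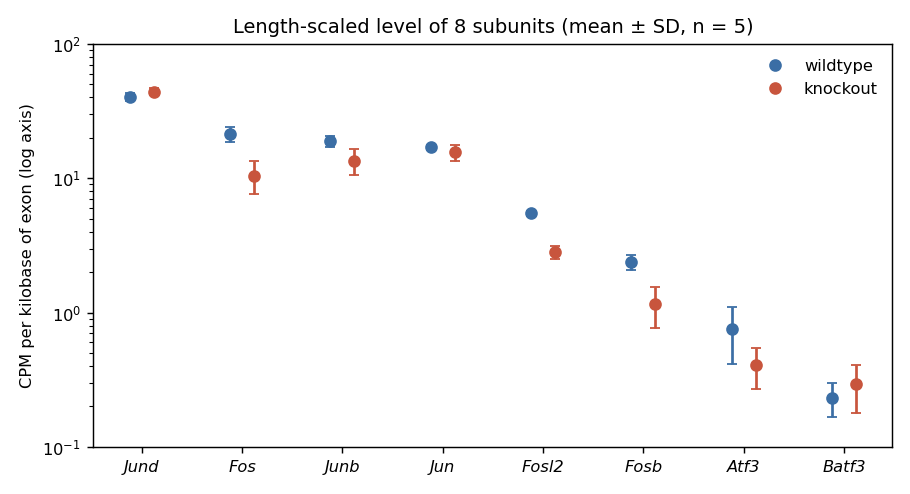
Mean ± SD (n = 5) of CPM per kilobase of exon (log axis) for 8 subunits in wildtype (blue) and knockout (red), ordered by the wildtype level; Fosl1, at the limit of detection, is not drawn. The order rests on GENCODE M21 exon lengths, by which Fos is above Jun in wildtype and below it in knockout.

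Other genes of the pathway were then examined. The inputs that switch on Fos and Jun (SRF, its cofactors, CREB and its relatives, MEF2 factors and the ERK, JNK, p38 and RSK kinases) comprised 33 tested genes. By edgeR 1 fell and none rose, against 1.18% of all tested genes called in either direction. The log2 fold changes were negative for 17 and positive for 16 of them, with a median of -0.0016. The gene that fell was Creb1, the CREB factor that binds TGACG sites, at 87.8 ± 7.20 CPM in wildtype and 71.7 ± 4.92 CPM in knockout. Its log2 fold change was -0.29, with an edgeR adjusted p of 0.0303. Wildtype libraries ran from 81.2 to 99.1 CPM and knockout libraries from 67.0 to 78.9 CPM. The groups did not overlap, with knockout lower, which held for 2.64% of all tested genes. Leaving out any of wildtype replicates 3, 4 and 5 or of knockout replicates 1, 2 and 4 ended the call (edgeR adjusted p 0.0569 to 0.0959). Crem, a relative of Creb1, had the larger estimate, at 16.6 ± 1.48 CPM in wildtype against 12.8 ± 1.80 CPM in knockout (log2 fold change -0.37), and did not pass (edgeR adjusted p 0.101). It was chosen for mention after its values had been seen.

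Among 12 tested leucine zipper genes of the ATF, MAF and related groups, which can pair with Fos or Jun, none passed by edgeR. At an unadjusted p under 0.05 there were 4, all lower, where 14.8% of all tested genes reached that level. DESeq2 called 1 and limma-voom 0, and the median log2 fold change was -0.076. Mafg, a small MAF protein, had the smallest p (132.8 ± 5.46 against 118.5 ± 3.16 CPM, edgeR adjusted p 0.0727), and it passed without knockout replicate 3 (edgeR adjusted p 0.0423). Nfe2l1, the most abundant, had a log2 fold change of 0.0030. Of 9 genes that break down Fos mRNA or Jun proteins, none passed by edgeR, DESeq2 or limma-voom, 2 were lower at an unadjusted p under 0.05 and the median was -0.025. In this group Fbxw7, a ubiquitin ligase subunit for c-Jun, differed by 0.12 on the log2 scale (edgeR adjusted p 0.376), and Itch, another ligase for Jun proteins, had -0.13 (edgeR adjusted p 0.223).

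Of genes reported as AP-1 targets in brain or other tissues 18 were tested, and by edgeR 1 fell and none rose, against 0.964% and 0.213% of all tested genes. The log2 fold changes were negative for 10 and positive for 8 of them, with a median of -0.0097. Bdnf, a neurotrophin whose gene is itself switched on by activity, was at 21.9 ± 1.71 CPM in wildtype and fell to 16.4 ± 2.35 CPM in knockout. Its log2 fold change was -0.41, with an edgeR adjusted p of 0.0383. Wildtype libraries ran from 20.2 to 23.9 CPM and knockout libraries from 12.8 to 19.0 CPM. The call ended when any of wildtype replicates 2, 3, 4 and 5 or of knockout replicates 2 and 4 was left out (edgeR adjusted p 0.0633 to 0.118) and with upper-quartile scaling (edgeR adjusted p 0.0526). The neuropeptide genes Scg2 and Penk, with log2 fold changes of -0.018 and 0.11, and the glutamate receptor gene Gria2, with 0.024, did not pass and were chosen for mention after their values had been seen.

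**Figure D5:**
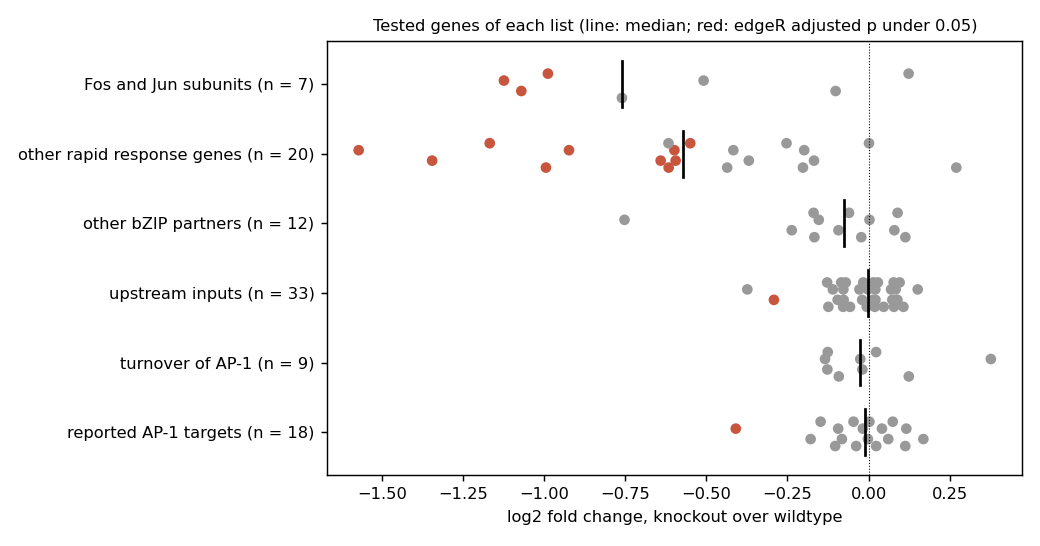
Log2 fold change of knockout over wildtype (horizontal axis) for each tested gene of the subunits and of 5 lists, with the list median as a black line and genes with an edgeR adjusted p under 0.05 in red. The subunits and the other rapid response genes lie mostly below 0, and the medians of the other 4 lists lie between -0.076 and -0.0016.

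Of 20 other rapid response genes, which share their inducing signals with Fos, 10 fell, none rose and 10 did not pass by edgeR, where 0.964% of all tested genes were called lower. The median log2 fold change was -0.57, against 0.0042 over all tested genes. The list was drawn up with earlier results of these data known, so its direction is not independent evidence. The 8 with the smallest p were Nr4a3, Arc, Egr2, Nr4a1, Klf4, Per1, Klf10 and Dusp1, with log2 fold changes of -1.35, -1.17, -1.57, -0.995, -0.92, -0.62, -0.64 and -0.60. Npas4, a neuron-specific early factor, was at -0.20 on the same scale (edgeR adjusted p 0.686), and Myc had 0.27 (edgeR adjusted p 0.476). Both were chosen for mention after their values had been seen.

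The tested genes most like Fos over the 10 libraries were Nr4a1, Arc, Apold1, Per2 and Sik1, with root mean square differences of 0.098, 0.13, 0.20, 0.22 and 0.23 in log2 CPM. The median over 11867 candidate genes was 0.60. Nr4a1, an orphan nuclear receptor, thus followed Fos more closely than any other subunit of AP-1 did. Those most like Fosl2 were Gcnt1, Sik1, Arc, Gpr3 and Emp2, at 0.15 to 0.18, against a median of 0.51. Sik1, a salt-inducible kinase, and Arc were on both lists. Per2, a clock gene, no longer passed when wildtype replicate 4 or 5 or knockout replicate 2 was left out (edgeR adjusted p 0.0561, 0.0575 and 0.0501).

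Markers of the cell types in brain were measured beside these results. The summed level of 5 neuronal markers was 4594 to 4706 CPM in wildtype and 4521 to 4905 CPM in knockout. Of 47 markers of all cell types and of the cerebellum, none passed by edgeR or limma-voom and 8 reached an unadjusted p under 0.05, a level that 14.8% of all tested genes reached. The smallest edgeR adjusted p-values were those of microglial C1qa (0.0506, log2 fold change 0.29) and meningeal and fibroblast Col3a1 (0.0522, log2 fold change -0.48). Both narrowly missed the threshold, as Junb did. DESeq2 called 4, of which 2 were microglial markers that rose and 2 were meningeal and fibroblast markers that fell. Of 5 microglial markers 3 were higher at an unadjusted p under 0.05, and the summed level was 155.2 to 171.4 CPM in wildtype and 181.3 to 222.7 CPM in knockout, without overlap. Of 6 meningeal and fibroblast markers 3 were lower at an unadjusted p under 0.05, with 185.3 to 212.2 CPM in wildtype and 142.7 to 192.7 CPM in knockout. The other 2 of the 8 were Pdgfra of the oligodendrocyte precursors (log2 fold change 0.20, edgeR adjusted p 0.224) and Hbb-b1 of red blood cells (log2 fold change 0.32, edgeR adjusted p 0.294), both chosen for mention after their values had been seen. All 4 blood markers had positive log2 fold changes, with a median of 0.32, and their summed level was 48.1 to 81.6 CPM in wildtype and 63.8 to 94.1 CPM in knockout, with overlap. No marker was at 0 in all libraries. Without knockout replicate 3, the summed cerebellar markers were higher in knockout than in wildtype libraries, without overlap. How often such a separation with knockout higher occurs over all tested genes was not counted. The part of these cell types and of the cerebellum in the fall of the Fos genes was not tested.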

How the data were processed

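The authors deposited whole-number read counts per Ensembl gene, 1 column per brain. The submitters' processing notes name TopHat2 2.0.6, HTSeq, edgeR and limma; settings, genome build and counting strand are not given in the sources used here. The authors' fold changes and adjusted p-values were read only where undamaged (6 and 8 of the 9 genes), and 10 columns with damaged decimal points were not used.

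Fits used edgeR 4.0.16 in R 4.3.3: filterByExpr (minimum count 10, total 15), TMM scaling, a quasi-likelihood test of genotype alone and Benjamini-Hochberg adjustment over 14526 genes. Log2 CPM had 2 counts added, and counting-error values cover counting error only. Intervals are 95% with 8 residual degrees of freedom, fewer than the edgeR test uses, so they are wider than that test implies. P-values measure the spread between these libraries. The fit was tested on simulated data. Replicates differed beyond counting noise in every pair (chi-square over degrees of freedom at least 1.29). Exon lengths and overlaps came from GENCODE M21 (GRCm38).

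Members, lists and alternatives were chosen with earlier results of these data known. Named genes were the 9 subunits, called members of each list (at most 8), otherwise its most abundant gene and its smallest p, and the 5 genes of at least 5 CPM most like Fos or Fosl2. Alternatives covered scaling, filters, DESeq2 1.42.0, limma-voom (limma 3.58.1), thresholds, a replicate block, each library left out and a fit of the shallower libraries alone. Terms and splits by depth class were added after seeing the data.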

Additional observations from a re-analysis of the deposited data

How the results depend on the processing

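Fos, Fosb, Fosl2, Jun, Junb, Jund and Atf3 kept their direction in all 19 alternative fits each. Fosl2 passed in all 19, Fos and Fosb in 18, and Jun, Jund and Atf3 in none; Atf3 received no adjusted p from DESeq2. Fosl1 and Batf3 were under the count filter and had values only under other scalings, filters and libraries. In the 7 shallower libraries 1 subunit passed in place of 3, 26 genes were lower in place of 140 and 5 higher in place of 31; fewer libraries entered that fit. The number of subunits called lower was 3 or 4 with 1 library left out, and Junb was the one added. Junb also passed without the count filter (adjusted p 0.00536) and at a threshold of 0.1.

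Over all genes, the number lower was 212 with DESeq2, 57 at a threshold of 0.01 and 271 at 0.1, and the number higher was 49, 6 and 102. With depth class as a term 48 genes were higher. Leaving out 1 library gave 67 to 248 lower and 8 to 93 higher. Without wildtype replicates 3, 4 and 5 and knockout replicates 1, 2 and 4 the number lower was 79, 67, 70, 92, 71 and 75, and without knockout replicate 3 it was 248. The cause was not tested. Upstream inputs had 0 to 2 calls and reported targets 0 to 1 with 1 library left out, and both had 0 in the shallower libraries and at a threshold of 0.01. Reported targets had 0 with upper-quartile scaling. The leucine zipper partners had 0 to 1 with 1 library left out and 1 each with DESeq2, with depth class as a term and at a threshold of 0.1. The sign of Nfe2l1 changed to -0.0044 with depth class as a term, and its log2 fold change ran from -0.0092 to 0.016 with 1 library left out.

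The replicate numbers were not stated to pair animals. Deviations from the group means correlated at -0.14 to 0.089 between same-numbered libraries, and 1 of 5 wildtype libraries correlated best with its own number. With the replicate block 82 genes were lower and 8 higher, the 3 Fos genes kept their calls, Junb had an adjusted p of 0.0894, and upstream inputs and reported targets had 0 calls each. Dixon's test was applied to the highest or lowest library within each genotype. It covered the levels of the 9 subunits, the ratio of Fos to Jun and the share of the Fos genes. None of these 22 sets of values was past its critical value. The cerebellar markers, in which knockout replicate 3 was extreme, were not put through this test.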
